A study of Mus musculus with 7 samples.

Results

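The transcripts of 9 enzymes that make, salvage or remove deoxynucleotides were followed in cultured LLC1 cells, a mouse Lewis lung carcinoma line, with and without an shRNA against Ddx54, a DEAD-box RNA helicase. The enzymes were picked by symbol from the count table, which lists 24419 genes: Rrm1, Rrm2, Rrm2b, Tyms, Tk1, Dut, Dck, Dctpp1 and Samhd1. All 9 were in the table and all 9 had enough reads to be tested, as did 11594 genes in all. The control group holds 4 libraries labelled wild-type for Ddx54, and the other group holds 3 libraries of cells in which Ddx54 was knocked down; both were grown in the same serum-containing medium. The labels name neither a control construct for the wild-type cells, nor the shRNA sequence, nor whether the knockdown cells are a clone, a pool or several shRNAs. Nor do they say that each replicate was grown separately, and the spread that p-values are read against may therefore be technical.

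A dividing cell has to supply all 4 deoxynucleoside triphosphates while it copies its DNA, and ribonucleotide reductase makes them by reducing ribonucleoside diphosphates. The enzyme joins a large catalytic subunit, Rrm1, to a small radical-bearing subunit, which is Rrm2 in S phase or its p53-inducible relative Rrm2b outside it. Thymidylate is finished by Tyms from the dUMP that Dut releases, the kinases Tk1 and Dck recycle deoxynucleosides, Dctpp1 clears dCTP and modified cytidine triphosphates, and Samhd1 breaks dNTPs down. Rrm2, Tyms and Tk1 are textbook E2F-driven genes whose products are abundant in S phase and scarce in resting cells.

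The libraries held between 14987324 and 18673395 counts. Expression is given as CPM, the gene's count scaled to a common library size with TMM factors, and a value with ± is the mean and SD over the 4 libraries of wild-type (n = 4) or the 3 of knockdown (n = 3). Ddx54 itself was at 80.4, 82.5, 78.6 and 83.2 CPM in wild-type and at 45.9, 39.2 and 45.8 CPM in knockdown, so no library went against its label. The epithelial genes Epcam and Cdh1, which mark many carcinomas, had 3 counts each over all libraries. The 8 epithelial markers summed to 239 to 249 CPM in wild-type and to 150.0 to 168 CPM in knockdown, mostly Krt18, and 2 of the 3 tested fell. The 10 leukocyte markers summed to 19.7 to 22.9 CPM in wild-type and to 26.3 to 30.8 CPM in knockdown, mostly Cd14, which was called higher, while Ptprc had 2 counts. The 10 fibroblast markers summed to 1047 to 1238 CPM in wild-type and to 1059 to 1128 CPM in knockdown, nearly all Col3a1, with Fap at 2 counts and Thy1 at 0. Of the 7 endothelial markers, 4 (Cdh5 among them) had 0 counts and none was tested. The part of these marker shifts in the results was not tested.

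In knockdown, 7 of the 9 enzymes were higher, 1 was lower and 1 did not pass. Of all tested genes 29.4% were called, 14.1% higher and 15.3% lower (edgeR quasi-likelihood test, Benjamini-Hochberg adjusted p under 0.05). The log2 fold change, positive when higher in knockdown, had a median of 0.31 over the 9 enzymes and of 0.001 over all tested genes. The groups did not overlap for 7 of the 9 enzymes, against 35.1% of tested genes. The precursor ribosomal RNA Rn45s also separated the groups, at 10.7 to 12.5% of counts in wild-type and 7.96 to 9.07% in knockdown, as did the number of genes with a count (12698 to 12875 and 13105 to 13347). With Rn45s removed, still 7 enzymes were called higher and 1 lower; the part of the number of detected genes was not tested. The rises ran from 1.20-fold for Dctpp1 to 2.24-fold for Rrm2, and the enzyme that fell was Dut.

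**Figure D1:**
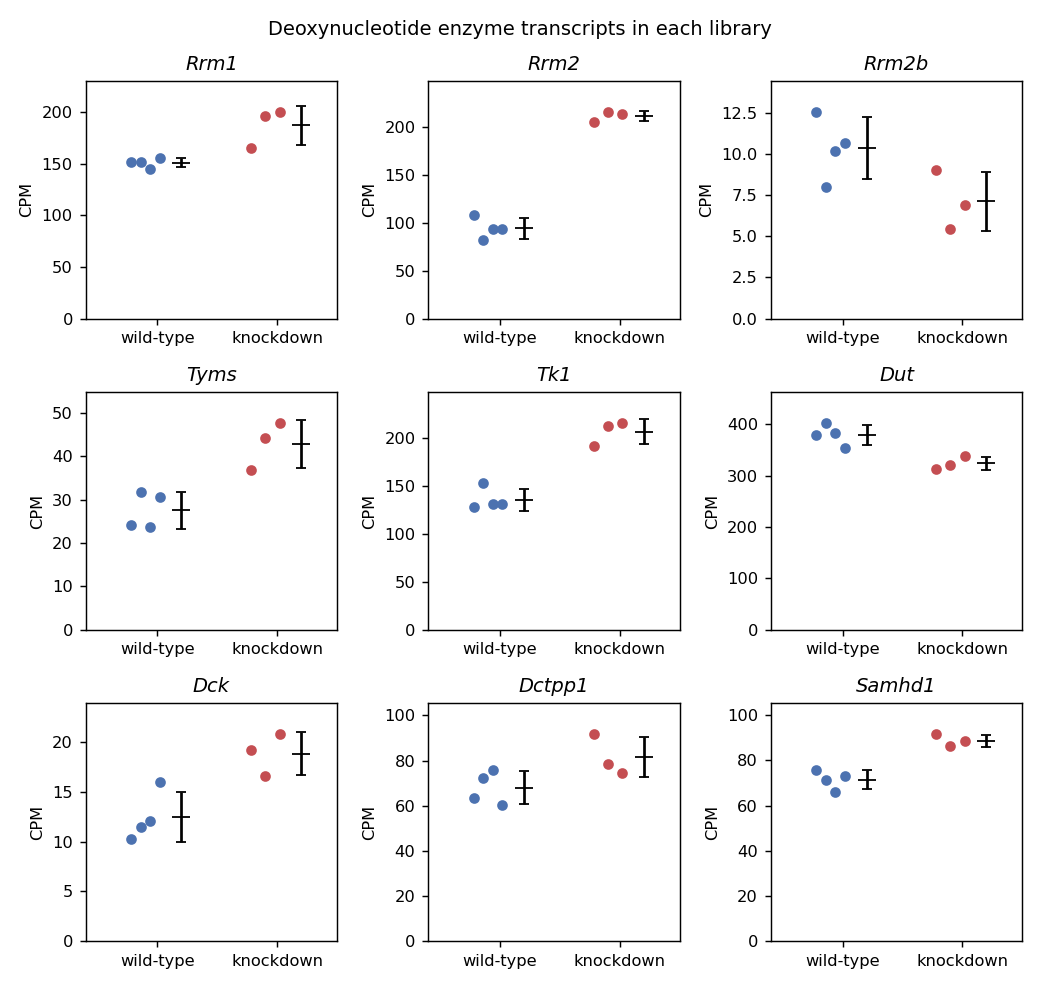
Level of each of the 9 transcripts in CPM (vertical axes, each starting at 0) in the 4 wild-type libraries (blue) and the 3 Ddx54 knockdown libraries (red); points are libraries and black bars are the group mean ± SD. The knockdown points of Rrm2 sit at 205 to 216 CPM, above all wild-type points, those of Dut sit below all wild-type points, and the groups overlap for Rrm2b and Dctpp1.

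The promoters of the reductase subunits are shown first because Rrm1 and Rrm2 encode partners of one enzyme and moved by different amounts. RefSeq windows of 300 bases (build GRCm38.p6, the assembly also called mm10) were found for 8 of the 9 enzymes, all but Rrm2b. Their start sites are those of RefSeq and can differ from the gene ends given below. The Dut window lies wholly inside the gene as placed below, so the sequence before that gene was not searched. The 250 bases upstream of each start site are printed 5′ to 3′ on the gene's own strand, with the CCAAT box in capitals. Rrm1 was read at chr7:102441445-102441694 and Rrm2 at chr12:24708004-24708253, both on the plus strand.
Rrm1: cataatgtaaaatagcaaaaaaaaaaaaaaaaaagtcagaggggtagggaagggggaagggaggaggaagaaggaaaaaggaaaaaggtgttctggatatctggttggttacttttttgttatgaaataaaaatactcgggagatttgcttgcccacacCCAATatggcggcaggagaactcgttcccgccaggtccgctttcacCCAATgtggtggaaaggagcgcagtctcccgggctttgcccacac
Rrm2: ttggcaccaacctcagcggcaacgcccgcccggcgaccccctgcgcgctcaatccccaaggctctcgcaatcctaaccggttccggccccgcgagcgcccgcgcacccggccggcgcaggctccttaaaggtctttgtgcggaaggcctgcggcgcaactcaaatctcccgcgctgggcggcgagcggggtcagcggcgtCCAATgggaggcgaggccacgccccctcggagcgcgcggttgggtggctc

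The CCAAT box is the site of the factor NF-Y and is common near the start of S phase genes. The letters CCAAT were found in the windows of Rrm1, with first bases 91 and 45 bases before the start site, of Rrm2, at 50 bases before it, and of Dctpp1, on the opposite strand. On either strand they occur in 37.4% of all 32851 RefSeq windows of that length. The E2F spellings TTTGGCGC, TTTCCCGC, TTTGCCGC and TTTCGCGC were in none of the 8 windows and in 2.26% of all windows. Only these exact spellings were searched, so near matches, such as gttcccgc in the Rrm1 sequence above, were not counted. The cell cycle homology region, TTTGAA or TTCGAA, was in the window of Dck alone among the 8 and in 19.2% of all windows. These are matches of letters and say nothing of binding.

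Ribonucleotide reductase changed unequally between its subunits. Rrm2 (chromosome 12, 24708241 to 24714146, plus strand, GRCm38, ENSMUSG00000020649.11), the S phase small subunit, was at 108, 81.6, 93.8 and 93.7 CPM in wild-type and at 205, 216 and 214 CPM in knockdown. The lowest knockdown library was thus well above the highest wild-type library. The change was 1.16 log2 units (SE 0.0785, 95% interval 1.01 to 1.32, adjusted p = 3.15e-13, edgeR). Rrm2 ranked 11th of the 11594 tested genes by p, and its change was larger in size than that of 95.2% of them.

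Rrm1 (chromosome 7, 102441695 to 102469771, plus strand, ENSMUSG00000030978.10), the large subunit that binds substrates and allosteric effectors, was at 151, 151, 145 and 156 CPM in wild-type and at 166, 196 and 200 CPM in knockdown. The groups did not overlap, but knockdown library 1 lay much closer to wild-type than the other knockdown libraries did. The rise was 0.31 log2 units (SE 0.0731, 95% interval 0.16 to 0.46, adjusted p = 0.00119, edgeR). Rrm2b (chromosome 15, 37923952 to 37961318, minus strand, ENSMUSG00000022292.16), the small subunit that serves repair and mitochondrial DNA outside S phase, was at 12.5, 8.01, 10.2 and 10.7 CPM in wild-type and at 9.01, 5.43 and 6.90 CPM in knockdown. The groups overlapped, since knockdown library 1 was above wild-type library 2.

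The difference of Rrm2b was -0.54 log2 units (SE 0.238, 95% interval -1.03 to -0.06), and it did not pass after adjustment over all genes (adjusted p = 0.0834, edgeR). It passed when wild-type library 2 was left out (-0.65, adjusted p = 0.0405) or when knockdown library 1 was (-0.75, adjusted p = 0.0453), and over all alternatives the adjusted p ran from 0.0405 to 0.335 (edgeR, DESeq2 or limma). Rrm2b rests on 100 to 230 reads per library, where counting alone gives an error of 7.65% in wild-type and 9.17% in knockdown. Its reads may also include those of the antisense gene Gm49085, which overlaps 734 bases of its exons, as the strand setting of the counting is not given in the sources used here. The processed pseudogene Gm8616 matches 1051 bases of Rrm2b at 96.1% identity. Shorter matches are Gm48455 to Rrm2 (419 bases, 95.5%), Gm5742 to Tk1 (288, 91.0%) and Gm7653 to Dctpp1 (513, 91.2%). None of these pseudogenes is in the count table.

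The subunits were then set against each other inside each library, which needs no library scaling. Each count was divided by the length of the gene's principal transcript. Rrm2 stood to Rrm1 at 1.30, 0.983, 1.181 and 1.098 in wild-type and at 2.26, 2.005 and 1.95 in knockdown, so every knockdown library was above every wild-type library. The level of this ratio depends on the length used: with the union of all annotated exons, a choice made after seeing the data, it was 2.49 ± 0.291 in wild-type and 4.51 ± 0.365 in knockdown. The fold between the groups does not depend on length. The ratio was 1.82-fold higher in knockdown (exact two-sided permutation test over 35 splits, p = 0.0286, adjusted p = 0.0381 over the 4 ratios tested). The p of 0.0286 is the smallest this design can give.

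The alternative small subunits were compared in the same way. Rrm2 stood to Rrm2b at 17.9, 21.2, 19.1 and 18.3 in wild-type and at 47.4, 82.6 and 64.4 in knockdown. With the union of exons these were 30.3 ± 2.31 and 102.7 ± 27.9. The groups were far apart, and the knockdown libraries differed among themselves much more than the wild-type libraries. The ratio was 3.31-fold higher in knockdown (exact permutation p = 0.0286, adjusted p = 0.0381). Rrm2 alone already separated the groups, and the lower level of Rrm2b had not passed on its own. The test of the ratio therefore gives no support for a fall of Rrm2b.

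**Figure D2:**
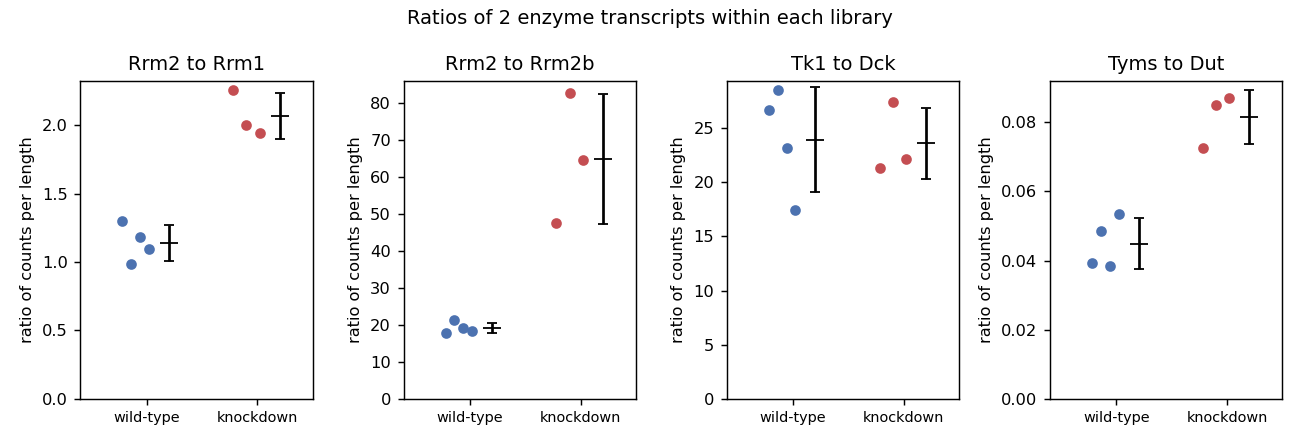
Ratio of the length-scaled counts of 2 transcripts in the same library (vertical axes from 0) for 4 pairs, in wild-type (blue) and Ddx54 knockdown (red); points are libraries and black bars are the mean ± SD. Rrm2 to Rrm1 goes from 1.14 ± 0.133 to 2.07 ± 0.167 and Rrm2 to Rrm2b from 19.1 ± 1.46 to 64.8 ± 17.6, while the groups overlap for Tk1 to Dck.

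In the thymidylate branch, the synthase rose and the enzyme upstream of it fell. Tyms (chromosome 5, 30058202 to 30073617, minus strand, ENSMUSG00000025747.12), which methylates dUMP to dTMP, was at 24.1, 31.7, 23.8 and 30.7 CPM in wild-type and at 36.8, 44.3 and 47.7 CPM in knockdown. Every knockdown library was above every wild-type library. The rise was 0.64 log2 units (SE 0.133, 95% interval 0.37 to 0.91, adjusted p = 0.000338, edgeR). A stretch of the Tyms transcript is repeated in many other transcripts, and the processed pseudogene Tyms-ps matches 935 bases of it at 93.9% identity; Tyms-ps had 4 counts over all libraries against 3957 for Tyms.

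Dut (chromosome 2, 125247190 to 125258608, plus strand, ENSMUSG00000027203.15), the dUTPase that keeps uracil out of DNA and hands dUMP to Tyms, was at 379, 402, 383 and 354 CPM in wild-type and at 313, 321 and 338 CPM in knockdown. All 3 knockdown libraries were below all 4 wild-type libraries. The fall was small, -0.23 log2 units or 0.854 of the wild-type level (SE 0.0633, 95% interval -0.36 to -0.10, adjusted p = 0.00571, edgeR), and Dut had the most reads of the 9 enzymes. It kept its call in all 15 alternative settings, with adjusted p from 0.00151 to 0.0445 (edgeR, DESeq2 or limma). Dut makes a nuclear and a mitochondrial product from alternative first exons, and counts per gene cannot separate them.

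Tyms stood to Dut at 0.0392, 0.0486, 0.0383 and 0.0534 per length in wild-type and at 0.0725, 0.0851 and 0.0869 in knockdown. The groups did not overlap, and Dut was above Tyms per length in every library, also with the union of exons (0.0288 ± 0.00472 and 0.0523 ± 0.00504). The ratio was 1.83-fold higher in knockdown (exact permutation p = 0.0286, adjusted p = 0.0381). Tyms was above and Dut below all wild-type libraries in every knockdown library, so this p was fixed by those results and adds no support.

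The salvage kinases rose by similar amounts. Tk1 (chromosome 11, 117815526 to 117826092, minus strand, ENSMUSG00000025574.13), the cytosolic thymidine kinase, was at 128, 153, 131 and 131 CPM in wild-type and at 192, 213 and 216 CPM in knockdown. Wild-type library 2 was the highest of its group and still below the lowest knockdown library. The rise was 0.61 log2 units (SE 0.0741, 95% interval 0.45 to 0.76, adjusted p = 8.74e-08, edgeR). Tk1 shares 83 exonic bases with the opposite-strand gene Afmid.

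Dck (chromosome 5, 88764996 to 88783281, plus strand, ENSMUSG00000029366.10), which phosphorylates deoxycytidine and the purine deoxynucleosides and activates nucleoside drugs, was at 10.3, 11.5, 12.1 and 16.0 CPM in wild-type and at 19.2, 16.6 and 20.8 CPM in knockdown. The groups came close but did not overlap. The rise was 0.60 log2 units (SE 0.183, 95% interval 0.22 to 0.97, adjusted p = 0.0123, edgeR), and it did not pass without Ddx54 knockdown replicate 3 (0.52, adjusted p = 0.0815). Over all alternatives the adjusted p of Dck ran from 0.00407 to 0.0815 (edgeR, DESeq2 or limma). Tk1 stood to Dck at 26.6, 28.5, 23.2 and 17.5 in wild-type and at 21.3, 27.4 and 22.1 in knockdown. With the union of exons these were 8.15 ± 1.65 and 8.04 ± 1.12. The ranges overlapped (exact permutation p = 1), and Tk1 rose 1.52-fold (95% interval 1.37 to 1.69) beside 1.51-fold (1.17 to 1.96) for Dck, so a modest difference between the kinases could not be seen here.

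Samhd1 and Dctpp1, which remove nucleotides, were both called higher, unlike the dUTPase Dut. Samhd1 (chromosome 2, 157097533 to 157135265, minus strand, ENSMUSG00000027639.16), the dNTP triphosphohydrolase that limits retroviruses in resting cells, was at 75.9, 71.2, 66.0 and 72.9 CPM in wild-type and at 91.6, 86.2 and 88.4 CPM in knockdown. All knockdown libraries were above all wild-type libraries. The rise was 0.31 log2 units (SE 0.0863, 95% interval 0.14 to 0.49, adjusted p = 0.00576, edgeR), close to that of Rrm1.

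Dctpp1 (chromosome 7, 127256959 to 127260709, minus strand, ENSMUSG00000042462.4), the dCTP pyrophosphatase, was at 63.4, 72.2, 75.8 and 60.2 CPM in wild-type and at 91.6, 78.5 and 74.7 CPM in knockdown. Knockdown library 3 lay below wild-type library 3, so the groups overlapped. The rise was 0.27 log2 units (SE 0.0975, 95% interval 0.07 to 0.46, adjusted p = 0.0370, edgeR), the weakest call among the 9. It did not pass without wild-type replicate 1 (adjusted p = 0.0895) or 4 (0.126), nor without Ddx54 knockdown replicate 1 (0.280) or 2 (0.0667), and over all alternatives its adjusted p ran from 0.0195 to 0.280 (edgeR, DESeq2 or limma).

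**Figure D3:**
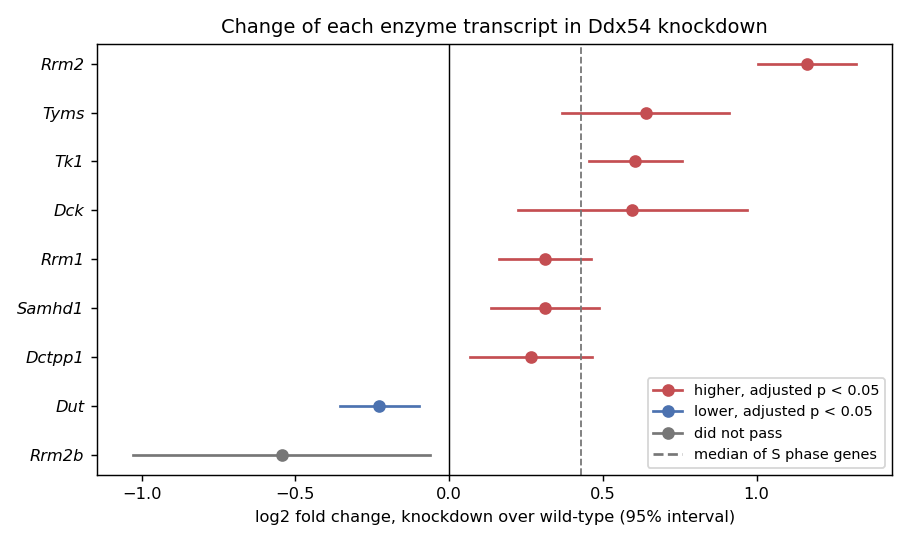
Log2 fold change of each transcript in knockdown over wild-type (horizontal axis) with its 95% interval, which is not adjusted for the number of genes; red and blue mark genes called higher and lower, grey the gene that did not pass, and the dashed line is the median of 39 other S phase genes. Rrm2 at 1.16 stands to the right of the other 8, and Dut at -0.23 and Rrm2b at -0.54 lie left of 0.

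Levels can be ranked between genes only per length. In wild-type, Dut led with 195 ± 10.2 CPM per kilobase of the principal transcript, followed by Dctpp1 (100.4 ± 10.8) and Tk1 (94.4 ± 7.99), whose ranges overlapped. Rrm2 (43.0 ± 4.90) and Rrm1 (37.7 ± 1.11) came next and also overlapped, and Samhd1 (18.2 ± 1.05), Tyms (8.72 ± 1.33), Dck (4.05 ± 0.809) and Rrm2b (2.27 ± 0.407) followed as separate levels. In knockdown, Tk1 (144 ± 9.06 CPM per kilobase) had the second highest mean after Dut (166 ± 6.63), although its range overlapped that of Dctpp1 (121 ± 13.2). Rrm2 had moved to 96.4 ± 2.44 CPM per kilobase, clear of Rrm1 at 46.8 ± 4.70. With the union of all annotated exons as length, Rrm1 and Tk1 were placed lower in wild-type (13.7 and 26.2 CPM per kilobase), so Rrm2 at 34.0 then ranked above both. In knockdown the order by union length was Dut (134 CPM per kilobase), Dctpp1 (121), Rrm2 (76.3) and then Tk1 (39.8), so the rank of Tk1 rests on the length chosen.

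The length-scaled levels also give each transcript's share of the 9 summed. That sum was 503 ± 20.5 CPM per kilobase in wild-type and 618 ± 9.72 in knockdown. A share can therefore fall further than the level itself, which for Dut was 0.854 of wild-type. The share of Rrm2 was 8.56 ± 1.19% in wild-type and 15.6 ± 0.252% in knockdown, and that of Dut was 38.7 ± 0.559% and 26.9 ± 0.672%. The share of Rrm1 was 7.50 ± 0.468% and 7.58 ± 0.655%, within the spread of its libraries. The share of Tk1 was 18.7 ± 1.07% and 23.2 ± 1.14%. By union length the share of Tk1 was 7.50 ± 0.499% and 9.69 ± 0.664%, that of Rrm1 3.94 ± 0.284% and 4.14 ± 0.437%, that of Rrm2 9.79 ± 1.35% and 18.6 ± 0.600%, and that of Dut 45.2 ± 0.751% and 32.7 ± 1.36%. With either length the share of Dut was lower, and those of Rrm2 and Tk1 higher, in every knockdown library than in every wild-type library.

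Other genes of S phase give the setting for these changes, beside 14.1% of all tested genes called higher and 15.3% lower. Of 39 S phase genes that are not among the 9 enzymes, 27 rose and 0 fell (edgeR; also 0 at an unadjusted p under 0.05, by DESeq2 and by limma-voom), with a median of 0.43 log2 units, led by Ccne2 (1.10), Clspn (1.04), Cdc6 (0.998) and the flap endonuclease Fen1 (0.84). The change of Rrm2 was above that of all 39. Tyms lay above 27 of them, Tk1 and Dck above 24, Rrm1 above 11, and Samhd1 and Dctpp1 above 10. Dut and Rrm2b lay below all 39, whose lowest value was 0.03 for Cdca7. Of 51 genes of G2 and M phase, 39 rose and 1 fell (median 0.34); the one that fell was Hmgb2 (-1.03), and Kif20b (0.77), Gtse1 (0.71) and Ttk (0.65) led the rises. In bulk RNA a larger share of cells in S phase and more of these transcripts per S phase cell cannot be told apart, and the part of either in the changes of the enzymes was not tested.

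E2F factors and pocket proteins control S phase transcription, and their list also held Lin9, Lin54, Mybl2 and Foxm1, which are neither. Of these 17 genes 9 rose, Lin54, Mybl2 and Foxm1 among them, with a median of 0.35 (E2f8 is also among the 39 S phase genes). Over all tested genes 14.1% were called higher and 15.3% lower. Lin54 is named after its values were seen. Of the 17 genes, 0 fell with edgeR (1 at an unadjusted p under 0.05), as did 0 with DESeq2 and with limma-voom. E2f7 rose most, from 15.5 ± 1.76 to 41.2 ± 5.07 CPM (1.41, adjusted p = 1.55e-09, edgeR), followed by E2f1 (0.56), Mybl2 (0.53) and Foxm1 (0.50). E2f7 is a repressor and E2f1 an activator of the same class of promoters. Without Ddx54 knockdown replicate 3 the count of rises was 5, and without replicate 2 of that group 6.

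The rest of the deoxynucleotide pathway moved in both directions. Of 23 further deoxynucleotide enzymes 20 were tested, and 8 rose, 2 fell and 10 did not pass, with a median of 0.16 log2 units. Over all tested genes the shares were 14.1% higher and 15.3% lower. The largest rises were those of Nme6 (0.81) and Nme1 (0.60), nucleoside diphosphate kinases that add the last phosphate, of the 5′-nucleotidase Nt5c (0.77) and of Nudt1 (0.63), which clears oxidised purine nucleotides. Nme1 went from 161 ± 6.55 to 245 ± 8.25 CPM. The falls were those of the cytidine deaminase Cda, from 41.2 ± 4.95 to 27.2 ± 2.68 CPM (-0.60), and of Dguok, the mitochondrial deoxyguanosine kinase (-0.33, adjusted p = 0.0267, edgeR). Cda and Dguok are named after their values were seen. The mitochondrial thymidine kinase Tk2 (-0.28, adjusted p = 0.294) and the dCMP deaminase Dctd (-0.21, adjusted p = 0.434) did not pass (edgeR), and both are likewise named after their values were seen. Without Ddx54 knockdown replicate 3 the count of rises was 5. Without wild-type replicate 1 or Ddx54 knockdown replicate 1 the count of falls was 1.

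Thioredoxin and glutaredoxin systems hand electrons to ribonucleotide reductase. The list of 7 genes of these systems also holds the mitochondrial Txn2 and Txnrd2, so its counts and median do not describe the cytosolic systems alone. Of 7 reductants, 0 rose (edgeR; 1 at an unadjusted p under 0.05, 0 by DESeq2 and by limma-voom) and 2 fell, where 14.1% and 15.3% of all tested genes did: thioredoxin reductase Txnrd1, from 287 ± 3.35 to 235 ± 5.42 CPM (-0.29, adjusted p = 0.000504), and glutaredoxin Glrx (-0.47, adjusted p = 0.0166, edgeR). Thioredoxin Txn1 was at 981 ± 35.1 and 1043 ± 25.3 CPM and did not pass (0.09, adjusted p = 0.264, edgeR). The count of falls was 1 without wild-type replicate 3 or without Ddx54 knockdown replicate 2 or 3. The list's median of -0.16 turned to 0.023 without wild-type replicate 2.

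Ribonucleotide synthesis, which feeds the reductase, showed no common direction. The counts below stand beside 14.1% of all tested genes called higher and 15.3% called lower. They are not read as a trait of these lists. In the pyrimidine branch 0 of 8 rose (edgeR; 3 at an unadjusted p under 0.05, 1 by DESeq2 and 1 by limma-voom) and 2 fell, Ctps2 (-0.57) and Uckl1 (-0.51), while the entry enzyme Cad was at 188 ± 26.3 and 190.2 ± 4.33 CPM (0.02, adjusted p = 0.898, edgeR). The fall count of this branch was 1 without Ddx54 knockdown replicate 1 or 3. In the purine branch 3 of 16 rose, among them Pfas (0.36) and Gart (0.25), and 3 fell, Adssl1 (-0.89), Adss (-0.27) and Impdh2 (-0.20), with a median of 0.08; Gart and Impdh2 are named after their values were seen. Among folate enzymes that serve thymidylate synthesis 9 of 10 were tested. The cytosolic Mthfd1 rose (0.42), the mitochondrial Shmt2 (-0.27) and Mthfd2 (-0.63) fell, and Mthfd2 went from 533 ± 58.8 to 344 ± 7.71 CPM. Shmt1, the partner of Tyms in the thymidylate cycle, was at 30.9 ± 2.35 and 31.4 ± 3.68 CPM and did not pass (adjusted p = 0.918, edgeR); it too is named after its values were seen.

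**Figure D4:**
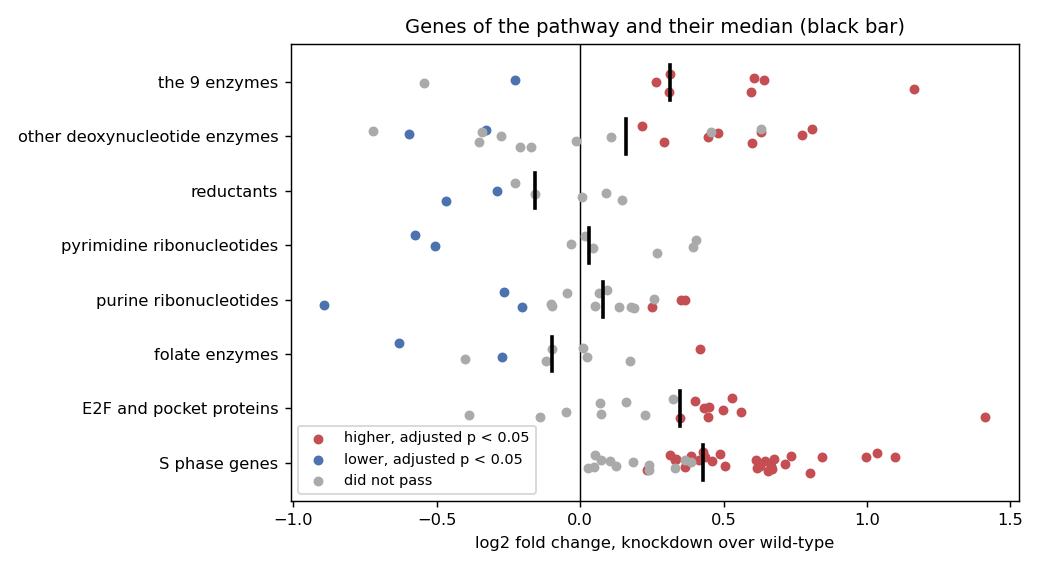
Log2 fold change in knockdown over wild-type (horizontal axis) of each tested gene of 8 lists (rows; points are genes, spread vertically for legibility); red, higher; blue, lower; grey, did not pass; black bars, list medians. The 9 enzymes (median 0.31), the E2F list (0.35) and the S phase genes (0.43) lie mostly right of 0, while ribonucleotide synthesis, folate enzymes and reductants straddle it.

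Rrm2b is a textbook p53 target, and the other p53 targets were read beside it. Of 17 tested, 0 rose and 6 fell (edgeR, median -0.18), where 14.1% and 15.3% of all tested genes did. The count of rises was also 0 at an unadjusted p under 0.05, by DESeq2 and by limma-voom. Gdf15 (-2.69), Bbc3 (-1.26), Sesn2 (-1.17) and Sesn1 (-0.68) fell most. The remaining 11 did not pass, among them Mdm2 (-0.04, adjusted p = 0.724) and Bax (-0.09, adjusted p = 0.672, edgeR). Mdm2 and Bax are named after their values were seen.

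Last, the genes whose profile over the 7 libraries was closest to that of Rrm2, Tk1 and Samhd1 were sought among 7830 genes with a mean of at least 10 CPM. The measure was the root-mean-square difference of log2 CPM after centring each gene on its mean. For Rrm2 these were Zbed4 (0.0921), Znf512b (0.0939), Fat1 (0.146), Coprs (0.149) and Ssh2 (0.151). For Tk1 they were Vti1b (0.0750), Slc25a44 (0.0750), Jade2 (0.0762), Tia1 (0.0782) and Cep55 (0.0784). For Samhd1 they were Sac3d1 (0.0353), Fam129b (0.0385), Impdh1 (0.0404), Ercc3 (0.0420) and Kpnb1 (0.0420). The nearest of the other 8 enzymes to Tk1 was Tyms, at 0.121, whereas the nearest to Rrm2 was Tk1, at 0.334.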

How the data were processed

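Polyadenylated RNA of 4 wild-type and 3 Ddx54 knockdown LLC1 libraries was sequenced. The authors deposited raw read counts per gene symbol; Trimmomatic, STAR, HTSeq and the build mm10 are named in the submitters' processing notes without versions. Not given in the sources used here are the annotation, the strand setting and how multi-mapping reads were handled. Reads of antisense or near-identical genes therefore cannot be told apart. The table has 0 further sample columns.

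Counts were tested in edgeR 4.0.16 (R 4.3.3): filterByExpr on the group (11594 of 24419 genes), TMM factors, robust quasi-likelihood F test, no covariate, Benjamini-Hochberg threshold 0.05. The SE is the log2 fold change over the square root of F. Intervals are 95% and unadjusted. Ratios were tested by exact permutation. The test was checked on simulated data. Alternatives were RLE and upper-quartile factors, no filter, a filter of 50 counts in 3 libraries, limma-voom (limma 3.58.1), DESeq2 1.42.0, a replicate block, removal of Rn45s, and leaving out each library. Positions, exon overlaps and principal transcripts come from a GENCODE annotation of GRCm38, near-identical copies from blastn 2.17.0 (at least 90% identity over 200 bases), and promoters from RefSeq.

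The 9 enzymes and all lists were chosen with earlier results of these data known. Apart from the enzymes and Ddx54, the rule named up to 4 called genes of largest change per list, any gene of lists of 8 or fewer, and the 5 genes closest to Rrm2, Tk1 and Samhd1. Cell markers are named for the check of cell type.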

Additional observations from a re-analysis of the deposited data

Results flagged for a closer look

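Over 23 quantities of the wild-type group (the 9 enzymes, Ddx54, the 4 ratios and the list means), 2 had a library apart from the other 3, where chance gives about 1.15. Tk1 was at 153 CPM in wild-type library 2 against 128 to 131 CPM in the others; without that library the rise of Tk1 was 0.67 log2 units (adjusted p = 5.17e-09, edgeR). The mean log2 CPM of the 39 S phase genes was 5.79 in wild-type library 3 against 5.83 to 5.84 in the others.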

How the results depend on the processing

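Over 15 alternatives, Rrm1, Rrm2, Tyms, Tk1, Dut, Samhd1 and Ddx54 kept direction and call. Genes called higher numbered 1222 to 1744 and lower 1409 to 1860. Leaving out each library gave 0.17 to 0.32 for Dctpp1, 0.51 to 0.74 for Dck and -0.75 to -0.38 for Rrm2b (log2), and 1 or 2 of the 9 enzymes called lower. For the ratios it gave 0.80 to 0.93 for Rrm2 to Rrm1, 1.53 to 1.93 for Rrm2 to Rrm2b, 0.80 to 0.96 for Tyms to Dut, and -0.15 to 0.088 for Tk1 to Dck, which changed sign around its reported -0.004. With fewer splits the exact test of a ratio cannot pass there.

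Leaving out each library gave 5 to 8 further deoxynucleotide enzymes higher and 1 to 2 lower (median 0.071 to 0.21), and 1 to 3 reductants lower (median -0.28 to 0.023). It gave 0 to 1 pyrimidine genes higher and 1 to 2 lower, and a purine median of 0.047 to 0.11. The folate median was -0.12 to -0.014. For the E2F list it gave 5 to 9 higher, 0 to 1 lower and a median of 0.31 to 0.39. Medians ran from 0.42 to 0.47 for S phase and from 0.32 to 0.36 for G2 and M. Of the pyrimidine genes, 1 was higher with no filter, with the 50-count filter, with DESeq2 and with limma-voom.

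Replicate numbers are shared, but same-numbered libraries did not deviate together (correlations -0.034, -0.027 and -0.006). The labels do not say whether same-numbered libraries were prepared together, and these correlations cannot settle it. With the replicate block Dctpp1 did not pass (0.21, adjusted p = 0.188, edgeR), the reductant median was -0.27 and the E2F median 0.31. The paired ratio differences were 0.85, 1.71 and 0.96 for Rrm2 to Rrm1, Rrm2 to Rrm2b and Tyms to Dut, where 3 pairs cannot pass (exact p = 0.25). The cause of the other shifts was not tested. Rrm2b and Dck rest on few reads, which limits their precision.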
